A study of Homo sapiens with 6 samples.

Results

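The 7 genes of the INK4 and CIP families of cyclin-dependent kinase (CDK) inhibitors were taken by name: *CDKN2A*, *CDKN2B*, *CDKN2C* and *CDKN2D* (INK4) and *CDKN1A*, *CDKN1B* and *CDKN1C* (CIP), which are 7 of 61228 gene names in the table. Their mRNA was measured by poly(A) RNA-seq in wild-type HBE cells, an immortalized human bronchial epithelial line. All 6 libraries came from cells exposed for 24 h to cockroach extract (CRE), an allergen. In 3 of them CRE was given alone (CRE group), and in the other 3 it was given with 20 μM VAF347, which activates the aryl hydrocarbon receptor (AhR), a transcription factor that small molecules switch on (CRE + VAF347 group). Per the study's cell culture methods, the agonist was given 1 h before CRE. Cells without CRE, or with VAF347 alone, were not analysed here, so each difference below is that of VAF347 on top of CRE. The question put to these genes was whether VAF347 altered the mRNA of the proteins that halt the cell cycle in senescence.

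INK4 proteins bind CDK4 and CDK6 and keep them from pairing with D-type cyclins, which leaves the retinoblastoma protein (RB) unphosphorylated and E2F target genes silent. CIP proteins bind complexes that already hold a cyclin, above all those of CDK2. *CDKN2A* encodes p16INK4A and, from another first exon and reading frame, p14ARF, which binds MDM2. Accumulation of p16 and p21 (*CDKN1A*) is a usual mark of senescent cells, and *CDKN2B* (p15INK4B) is a classical target of TGF-beta that MYC can repress.

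The libraries held 8873140 to 10750265 counts. The AhR targets *CYP1A1* and *CYP1B1* checked the VAF347 label. *CYP1A1* had 0.467 to 0.785 CPM (counts scaled to library size) in CRE and 43.3 to 51.0 in CRE + VAF347, and *CYP1B1* had 65.2 to 74.0 and 564 to 651 CPM. Of 8 markers of basal and general epithelium, *KRT8*, *KRT18*, *EPCAM*, *CDH1*, *KRT17* and *KRT5* were detected, while *KRT14* and *TP63* lay under 1 TPM (a level scaled to transcript length and library size) everywhere, and the list summed to 2931 to 3531 TPM in CRE and 2958 to 3079 in CRE + VAF347. Within this list *KRT17* (means of 150 and 125 CPM), *KRT5* (15.9 and 12.3) and *CDH1* (809 and 713) were lower with VAF347 without overlap. *KRT18* (937 and 1009) was higher without overlap, and the *KRT8* and *EPCAM* groups overlapped. The 5 secretory and ciliated markers were all under 1 TPM, with *SCGB1A1*, *SCGB3A1* and *MUC5AC* at 0. The lists for other cell types summed to less with VAF347 (fibroblast, 6 genes, 19.4 to 20.8 TPM and 14.9 to 19.0 TPM; endothelium, 3 genes, 7.31 to 7.92 and 3.95 to 4.67; leukocyte, 3 genes, 21.2 to 24.6 and 13.9 to 19.5), almost wholly through *COL1A1*, *CDH5* and *CD68*, while *DCN*, *LUM* and *PDGFRA* were at 0 in every library. *CDH5* (log2 fold change -0.84) and *VWF* (-1.45, under 1 TPM) passed both thresholds of the test given below. *COL1A1* (-0.10) and *CD68* (-0.43) did not, and the *COL1A1* groups overlapped in CPM (means of 40.3 and 37.6). The part of these marker genes in the results below was not tested. CRE replicate 3 stood apart from the other CRE libraries on the second principal component of all genes (-22.9 against 19.1 and 13.4).

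*CDKN2B* and *CDKN2A* lie next to each other on the minus strand of chromosome 9 (GRCh38, GENCODE v44), *CDKN2B* at chr9:22002903-22009305 and *CDKN2A* at chr9:21967752-21995301, with 7601 bases between them. Their promoters are shown because these 2 neighbours gave different changes below. The sequences are RefSeq windows upstream of the annotated starts (GRCh38.p14, minus strand, 5′ to 3′). Capitals mark GCGTG, the core that AhR recognizes, and GGGCGG, the GC box, on either strand.

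CDKN2B, chr9:22009306-22009555: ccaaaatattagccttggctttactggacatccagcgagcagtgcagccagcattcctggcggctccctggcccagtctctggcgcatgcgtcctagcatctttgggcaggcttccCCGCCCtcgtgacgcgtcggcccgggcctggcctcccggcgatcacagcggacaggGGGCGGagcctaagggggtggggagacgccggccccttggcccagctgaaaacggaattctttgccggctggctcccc

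CDKN2A, start used by p16INK4A, chr9:21974867-21975107: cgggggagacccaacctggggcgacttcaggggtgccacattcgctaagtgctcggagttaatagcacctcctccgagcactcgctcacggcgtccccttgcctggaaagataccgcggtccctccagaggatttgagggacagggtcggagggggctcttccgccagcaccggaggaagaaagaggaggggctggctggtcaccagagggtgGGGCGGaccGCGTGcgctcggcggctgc

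CDKN2A, start used by p14ARF, chr9:21995325-21995574: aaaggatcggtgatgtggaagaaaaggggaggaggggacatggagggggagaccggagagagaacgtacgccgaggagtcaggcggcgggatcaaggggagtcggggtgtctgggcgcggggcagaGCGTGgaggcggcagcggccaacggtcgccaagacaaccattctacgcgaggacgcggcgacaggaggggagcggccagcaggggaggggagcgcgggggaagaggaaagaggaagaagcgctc

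The *CDKN2B* window held no GCGTG and 2 GC boxes. The p16INK4A window, printed without the 9 bases next to the start, which are annotated as UTR, held 1 GCGTG near its 3′ end and 1 GC box. The p14ARF window held 1 GCGTG, 124 bases before the start, and no GC box. Of the members not printed, the windows of *CDKN1A* and *CDKN1B* held 1 GCGTG each and that of *CDKN2D* held 2. The 3 windows of *CDKN2C* held 1, 2 and 0. A link between these letters and the changes below was not tested. Among 35116 windows of 250 bases from all genes in the table, 32.2% held GCGTG and 42.6% held GGGCGG on either strand, so the letters are common. A match is a description of the sequence and not a binding site.

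*CDKN2B* was the 1 member that passed both thresholds of the test. It had 100.53, 101.15 and 100.01 CPM in CRE replicates 1 to 3 and 57.3, 57.7 and 48.8 CPM in CRE + VAF347 replicates 1 to 3. The groups did not overlap, and the 3 CRE values were within 2 CPM of each other. The means were 100.6 ± 0.574 and 54.6 ± 5.04 CPM (SD, n = 3), so the level fell by 45.7%. The log2 fold change was -0.88 (SE 0.073, 95% interval -1.04 to -0.72, adjusted p = 7.78e-05, edgeR quasi-likelihood test with Benjamini-Hochberg adjustment). In TPM, which is per transcript length, *CDKN2B* had 44.2, 45.2 and 55.7 in CRE and 26.2, 26.5 and 22.5 in CRE + VAF347. In bulk RNA, fewer cells with the transcript and less transcript per cell cannot be told apart.

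Of the 7 members, 6 had enough counts to be tested, and 1 of these passed both thresholds (adjusted p under 0.05 and absolute log2 fold change over 0.5), where 2.21% of the 15373 genes tested did so, 1.71% of them lower and 0.501% higher. At any fold 1 of 6 members passed, against 5.42% of all genes (4.07% lower and 1.35% higher). The groups did not overlap in CPM for *CDKN2A* and *CDKN2B*, which were lower with VAF347, and *CDKN2D*, which was higher; over all genes the groups did not overlap for 27.3% (14.8% lower and 12.5% higher). The median log2 fold change of the 6 was 0.00, beside 0.01 over all genes tested. The study had displayed *CDKN2A* and *CDKN2B* from these same libraries, so their direction is not independent evidence. Apart from these libraries, the study stained CRE-treated cells and described less p16 and p21 with VAF347. It also measured senescence markers in these cells by RT-PCR, and its primer list includes human p16 and p21. In lungs of CRE-exposed mice it reported lower *Cdkn2a* mRNA with VAF347. The mRNA values here were not tested against those measures.

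**Figure D1:**
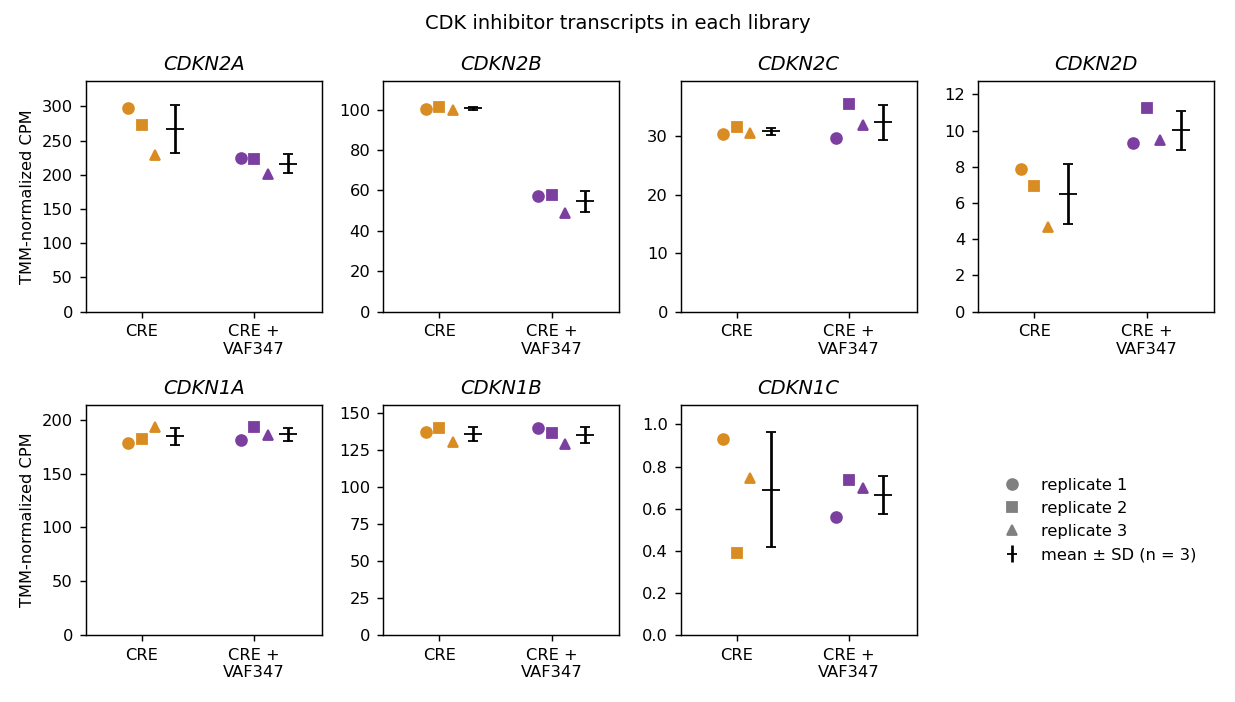
TMM-scaled CPM (y axis, from 0 in each panel) of the 7 CDK inhibitor genes in the 3 CRE and 3 CRE + VAF347 libraries, with 1 point a library, its shape giving the replicate, and mean ± SD beside each group. The *CDKN2B* points form separate groups at 100.01 to 101.15 and 48.8 to 57.7 CPM, whereas those of *CDKN1A* and *CDKN1B* intermingle.

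*CDKN2A* had 297.8, 273.1 and 229.6 CPM in CRE and 225.1, 223.2 and 201.1 CPM in CRE + VAF347. The lowest CRE library, replicate 3, lay just above the highest CRE + VAF347 library. The log2 fold change was -0.30 (SE 0.090, 95% interval -0.50 to -0.10) with an adjusted p of 0.0807 (edgeR), which missed the threshold. It was -0.40 without CRE replicate 3 (adjusted p = 0.000374, edgeR). With any other library left out, the adjusted p was 0.168 to 0.279 (edgeR). With all 6 libraries the adjusted p was 0.0467 with DESeq2. With edgeR and no filter on low counts it was 0.000801, in a fit that took *CDKN2B* from 7.78e-05 to 5.16e-26. Allowing for GC content in each library gave *CDKN2A* -0.23 (adjusted p = 0.229, edgeR). Its transcripts average 60.4% GC. Across genes with a mean over 8 CPM, the tenth with least GC had a median log2 fold change of 0.11. The tenth with most had -0.09. *CDKN2B*, at 50.04% GC, had -0.87 with the same allowance. The *CDKN2A* name pools p16INK4A and p14ARF transcripts, which these values do not separate.

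The ratio of *CDKN2B* to *CDKN2A* counts needs no scaling between libraries. It was 0.338, 0.370 and 0.435 in CRE and 0.255, 0.259 and 0.243 in CRE + VAF347, without overlap. The mean log2 ratio differed by -0.59 (CRE + VAF347 minus CRE), with a two-sided exact permutation p of 0.1, the smallest that 3 against 3 can give.

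*CDKN2D*, which encodes p19INK4D, was the scarcest INK4 gene. It had 76, 71 and 50 counts in CRE and 83, 107 and 95 in CRE + VAF347, or 7.87, 6.97 and 4.67 CPM against 9.33, 11.2 and 9.48. All 3 CRE + VAF347 libraries were above all 3 CRE libraries, and CRE replicate 3 was the lowest. The log2 fold change was 0.63 (SE 0.18, 95% interval 0.23 to 1.03) with an adjusted p of 0.0735 (edgeR), past the fold threshold but not the p threshold. It was 0.43 without CRE replicate 3 (adjusted p = 0.0995, edgeR) and 0.71 with the allowance for GC content (adjusted p = 0.0609, edgeR). With no filter on low counts the adjusted p was 0.00301 (edgeR).

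*CDKN2C*, which encodes p18INK4C, had 30.4, 31.5 and 30.6 CPM in CRE and 29.7, 35.5 and 31.9 CPM in CRE + VAF347. The groups overlapped, and the log2 fold change was 0.07 (SE 0.084, 95% interval -0.11 to 0.26, adjusted p = 0.676, edgeR). Of its 31-base words, 19.7% are also in a long non-coding RNA on the other strand, so reads could be shared between them.

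The CIP genes gave no detectable difference. *CDKN1A* (p21CIP1, a gene induced by DNA damage and other stress) had 178.1, 182.0 and 193.5 CPM in CRE and 180.9, 192.9 and 186.0 CPM in CRE + VAF347. Its log2 fold change was 0.02 (SE 0.060), with a 95% interval of -0.12 to 0.15 (adjusted p = 0.911, edgeR). *CDKN1B* (p27KIP1, a protein controlled largely by its degradation) had 137.4, 140.0 and 130.6 CPM in CRE and 139.8, 136.8 and 129.2 CPM in CRE + VAF347. Its log2 fold change was -0.01 (SE 0.060), with an interval of -0.14 to 0.12 (adjusted p = 0.959, edgeR). For both genes the intervals leave out changes as large as that of *CDKN2B*. *CDKN1C* (p57KIP2, an imprinted gene) had 9, 4 and 8 counts in CRE and 5, 7 and 7 in CRE + VAF347, too few to be tested.

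Levels of different genes were set side by side in TPM. *CDKN2A* was the most abundant member in all 6 libraries, at 395.3 to 425.5 TPM in CRE and 317.7 to 347.7 TPM in CRE + VAF347. *CDKN1A* came next, at 128.4 to 163.4 and 136.6 to 141.0 TPM, followed by *CDKN1B* at 96.0 to 111.6 and 92.4 to 99.5 TPM. *CDKN2D* lay at 6.93 to 9.54 and 11.3 to 13.3 TPM, and *CDKN1C* under 1 TPM throughout. The order differed between libraries at 1 place: *CDKN2B* stood above *CDKN2C* in the 3 CRE libraries and CRE + VAF347 replicate 1, and below it in CRE + VAF347 replicates 2 and 3. *CDKN2C* had 20.3 to 23.7 TPM in CRE and 20.6 to 28.1 TPM in CRE + VAF347, so that these neighbours were apart in CRE and overlapped in CRE + VAF347.

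The 4 INK4 genes summed to 502.2, 485.8 and 478.3 TPM in CRE and 405.8, 404.2 and 377.7 TPM in CRE + VAF347. The sum was lower by 92.9 TPM on average, of which the difference in *CDKN2A* was 75.9 TPM and that in *CDKN2B* 23.3 TPM, while *CDKN2C* and *CDKN2D* were higher by 2.52 and 3.85 TPM. *CDKN2A* thus made up most of the difference in level although its own test missed the threshold. Its share of the INK4 sum was 83.8% ± 1.07 in CRE and 84.3% ± 1.27 in CRE + VAF347 (SD, n = 3), and that of *CDKN2B* was 9.92% ± 1.52 and 6.32% ± 0.319. The 3 CIP genes summed to 225.1, 233.3 and 275.7 TPM in CRE and 236.5, 239.7 and 233.9 TPM in CRE + VAF347, with overlap.

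**Figure D2:**
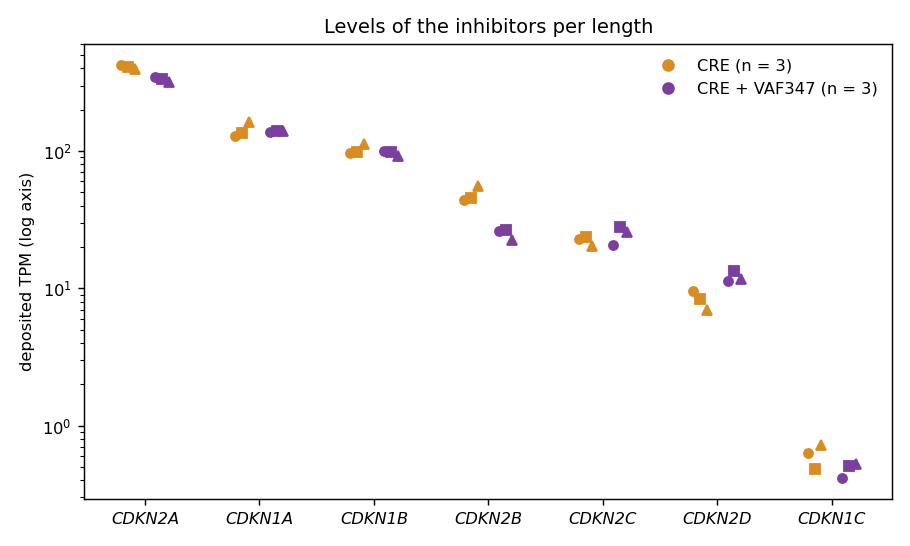
Deposited TPM (y axis, log scale) of the 7 members in each library, with 1 point a library and its shape giving the replicate. *CDKN2A* is highest in all 6 libraries, and *CDKN2B* lies at 44.2 to 55.7 TPM in CRE and at 22.5 to 26.5 TPM, the level of *CDKN2C*, in CRE + VAF347.

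The kinases that the INK4 proteins bind did not pass the test. *CDK4* averaged 215 and 198 CPM (log2 fold change -0.12) and *CDK6* 78.0 and 66.0 CPM (-0.24, adjusted p = 0.0752, edgeR, without overlap). Over all genes tested 14.8% were lower without overlap. *CDK2*, the main CIP target, had 221 and 213 CPM (-0.05), and the mitotic kinase *CDK1* 145 and 161 CPM (0.15). Among D-type cyclins, the partners of CDK4 and CDK6, *CCND1* had 99.6, 95.5 and 105 CPM in CRE and 117, 128 and 130 CPM in CRE + VAF347. Its log2 fold change of 0.32 (SE 0.065) passed at any fold (adjusted p = 0.0164, edgeR) but not the fold threshold. *CCND2* (0.09) and *CCND3* (0.14) did not pass, nor did *CCNE1* (0.08) and *CCNE2* (0.17), the partners of CDK2 at the start of S phase, or *CCNA2* (-0.01), *CCNB1* (0.17) and *CCNB2* (0.04) of the later cycle. Of 12 kinases and cyclins tested, 1 passed at any fold, beside 5.42% of all genes. Their median log2 fold change was 0.09, beside 0.01 over all genes. *CCNA1* had at most 1 count in a library and was not tested.

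**Figure D3:**
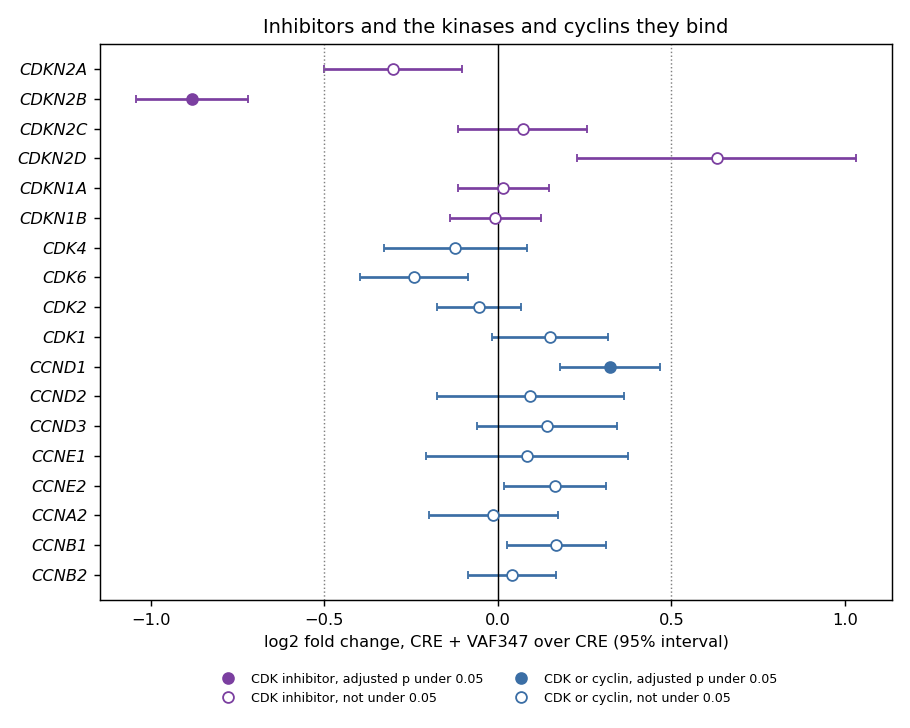
Log2 fold change (x axis, CRE + VAF347 over CRE, with 95% intervals from edgeR) of the 6 tested inhibitors and the 12 tested kinases and cyclins, filled where the adjusted p was under 0.05; dotted lines mark the fold threshold of 0.5. The interval of *CDKN2B*, -1.04 to -0.72, lies wholly beyond it, *CCND1* is the other filled point, and the intervals of *CDKN1A*, *CDKN1B* and *CDKN2C* span 0.

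Downstream of these kinases, none of 11 RB and E2F genes and none of 16 proliferation genes passed both thresholds. In the first list *E2F7*, a repressor among the E2F factors, had the largest difference (58.7 and 73.8 CPM, log2 fold change 0.33, adjusted p = 0.0293, edgeR), and in the second *BUB1*, a mitotic checkpoint kinase (109 and 142 CPM, 0.38, adjusted p = 0.0186, edgeR). The median log2 fold changes were 0.04 and -0.07. Of the proliferation genes, 12 were on the lower side and 4 on the higher, and the groups did not overlap for 7 lower and 2 higher genes; over all 15373 genes, 7359 were lower and 8014 higher, and the groups did not overlap for 14.8% lower and 12.5% higher. At any fold 1 passed in each direction, beside 4.07% lower and 1.35% higher over all genes. The gene besides *BUB1* was *MCM5*, a subunit of the replicative helicase (330 and 278 CPM, -0.25, adjusted p = 0.0293, edgeR), which was singled out after its values were seen. The other helicase subunits listed, *MCM2* (-0.27), *MCM3* (-0.17), *MCM4* (-0.11), *MCM6* (-0.18) and *MCM7* (-0.19), were lower too but did not pass. Transcripts of *MCM2*, *MCM5* and *MCM7* average 58.0%, 57.5% and 56.2% GC, and those of *MCM3*, *MCM4* and *MCM6* 51.8%, 48.4% and 43.2%. Those of *BUB1* average 42.1%. The part of GC content in these differences was not tested.

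The inputs that act on *CDKN2B* held 2 called genes of 13, both lower, where 1.71% of all genes were called lower. The list was chosen with earlier results of these data known, so this count is not independent evidence of an excess. *TGFB2*, a TGF-beta ligand, fell from 31.1, 33.7 and 30.9 CPM to 18.5, 15.03 and 18.8 CPM (log2 fold change -0.87, adjusted p = 0.000649, edgeR). *MYC* fell from 61.5, 59.4 and 66.0 CPM to 38.3, 30.6 and 28.9 CPM (-0.94, adjusted p = 0.000432, edgeR). Neither gene's groups overlapped. TGF-beta is known to raise and MYC to lower *CDKN2B*, and all 3 mRNAs were lower with VAF347. The median of the list was -0.01. The study had displayed *MYC* and *TGFB2* from these libraries too, as it had *CCND1* above and *GADD45A* below, so their directions are not independent evidence.

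Of 13 Polycomb and other regulators of the INK4 locus, none passed both thresholds. *ETS2*, which can activate p16INK4A, had the largest difference (82.6 and 62.2 CPM, -0.41, adjusted p = 0.00532, edgeR). Of 14 genes for the turnover of CIP proteins, none passed at any fold, and the largest difference was that of *FZR1*, an activator of the anaphase-promoting complex (56.1 and 48.5 CPM, -0.21). None of 3 FOXO factors passed, with *FOXO3* at -0.16.

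Among genes of the stress response to which *CDKN1A* belongs, 1 of 15 passed both thresholds: *PLK2*, a stress-induced kinase, fell from 243, 243 and 270 CPM to 175, 167 and 155 CPM (-0.61, adjusted p = 0.000639, edgeR). Over all genes tested 1.71% were called lower. At any fold 2 of the list passed as lower and 1 as higher, beside 4.07% and 1.35% of all genes. The others, named after their values were seen, were *BBC3*, a pro-apoptotic gene (16.8 and 12.4 CPM, -0.44), and *GADD45A*, a growth arrest gene (28.8 and 40.4 CPM, 0.49). The median of the list was 0.10. By direction alone, 10 of the list were higher and 5 lower, and the groups did not overlap for 6 higher and 2 lower. Over all genes they did not overlap for 12.5% higher and 14.8% lower. Genes of this list thus went both ways, more of them higher, while *CDKN1A* gave no detectable difference. The 3 other genes with CDK inhibitor names did not pass, but all 3 were higher without overlap, as were 12.5% of all genes. The largest difference was that of *CDKN3*, a phosphatase of CDKs (46.6 and 57.5 CPM, 0.31).

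**Figure D4:**
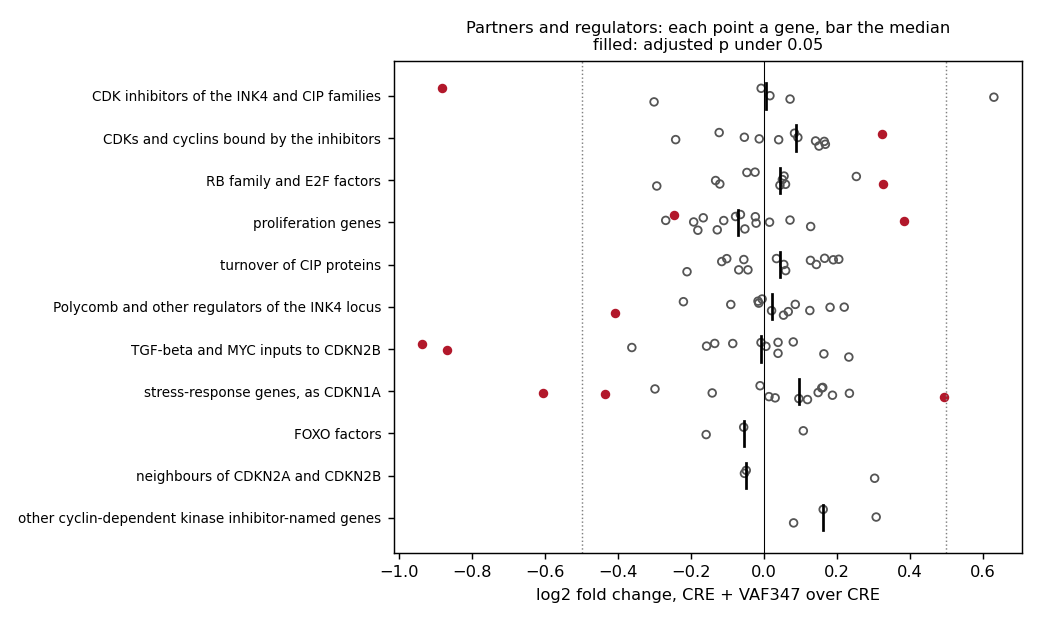
Log2 fold change (x axis) of every tested gene of the inhibitors (first row) and of each list of their partners and regulators, with 1 point a gene, filled where the adjusted p was under 0.05, and a bar at the median; dotted lines mark the fold threshold of 0.5. Below the first row *MYC* (-0.94), *TGFB2* (-0.87) and *PLK2* (-0.61) are the 3 genes beyond the dotted lines.

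The genes around *CDKN2A* and *CDKN2B* did not pass the test. *CDKN2B-AS1* (ANRIL), a long non-coding RNA read from the plus strand across *CDKN2B*, had 14.0, 14.6 and 14.2 CPM in CRE and 13.1, 14.5 and 13.6 CPM in CRE + VAF347 (log2 fold change -0.05, 95% interval -0.28 to 0.17, adjusted p = 0.803, edgeR). The interval leaves out a difference as large as that of *CDKN2B*, which lies within its introns and shares 0 exonic bases with it. *CDKN2A* shares 593 of its 3885 exonic bases with *CDKN2B-AS1* on the opposite strand, and since the use of strand in counting is not stated, reads there could belong to either. *MTAP*, a methionine salvage enzyme 30100 bases beyond *CDKN2A*, averaged 106 and 103 CPM (-0.05), and *DMRTA1*, on the far side of *CDKN2B*, 4.43 and 5.48 CPM (0.30, adjusted p = 0.403, edgeR). *CDKN2A-DT* had 6, 4 and 10 counts in CRE and 1, 2 and 4 in CRE + VAF347 and was not tested.

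**Figure D5:**
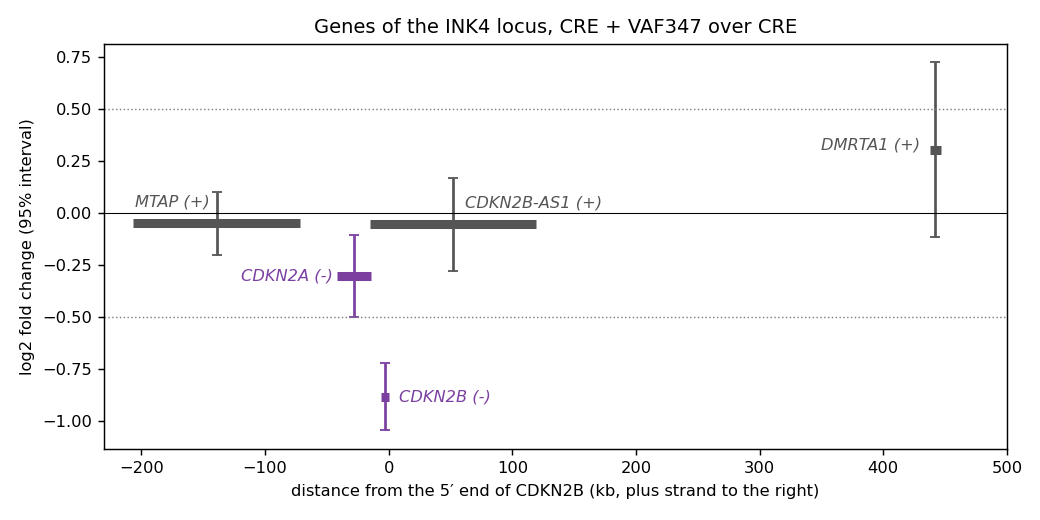
Log2 fold change (y axis, 95% interval) of *CDKN2B* and the tested genes around it against distance from its 5′ end in kb (x axis), with bars spanning each gene, signs giving its strand and dotted lines at the fold threshold of 0.5. *CDKN2B* is at -0.88, *CDKN2A* at -0.30, and *MTAP*, to the left, and *CDKN2B-AS1*, whose bar spans *CDKN2B*, are both at -0.05.

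The 5 genes whose pattern over the 6 libraries was most like that of *CDKN2B*, by Pearson's r of log2 CPM among 10589 genes, were *PSG5*, *MTHFD1L*, *PDZK1* and *ELF3* (each r = 0.998) and *STEAP4* (r = 0.996). Their log2 fold changes were -0.95, -0.38, -1.16, -0.54 and -1.08. All 6 points share the split into 2 groups, so any gene with a clean difference scores high. *PSG5* belongs to a family of near-identical genes, and its counts are uncertain.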

How the data were processed

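Poly(A)-enriched libraries of 6 HBE samples were sequenced by the authors, who quantified them with Salmon on hg38; the Salmon version is not given in the sources used here. The deposited expected counts are estimated reads per gene name, of which 9.29% were not whole (off by over 0.01), and were rounded. The deposited TPM values were scaled by the authors to transcript length and to the same total in each library. Another deposited table holds the authors' own comparison (fold changes and p-values) and was not used.

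Rounded counts were filtered with filterByExpr, scaled by TMM and tested with edgeR 4.0.16 (glmQLFit, glmQLFTest; R 4.3.3), with Benjamini-Hochberg adjustment over 15373 genes; the fits were tested on simulated data. CPM values are TMM-scaled, and 1 count was worth 0.0930 to 0.113 CPM before that scaling. Alternatives were DESeq2 1.42.0, limma 3.58.1 on log2(TPM + 1) and log2(TPM + 0.1), other filters, a replicate block, leaving out each library and, chosen after seeing the data, an offset for GC content (lowess per library over genes with a mean over 8 CPM). Whether replicates were separate cultures grown on separate days is not stated, so p-values measure the spread between these samples, which may be technical.

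Members and lists were chosen with earlier results of these data known. Genes were named by rule: all members, every tested kinase and cyclin, every neighbour, of the other lists each gene past both thresholds or else the one with the largest difference at a mean of at least 10 CPM, and the 5 genes most like *CDKN2B*. Gene positions, exon overlaps and shared 31-base words came from GENCODE v44, and promoters from RefSeq, where 6 of 7 members matched. A marker gene and a list gene are not reported here.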

Additional observations from a re-analysis of the deposited data

How the results depend on the processing

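Of 178 values under alternatives, 149 were the same by the rule for their kind. For tested members this meant the same direction and the same call (both thresholds together). For counts of genes it meant staying within 1.5 times the count reported. The ratio of *CDKN2B* to *CDKN2A* had to keep its direction. *CDKN1C*, not tested, had to stay within the larger group SD of its log2 CPM. *CDKN2A* never passed the fold threshold. Its adjusted p of 0.0807 (edgeR) passed 0.05 with DESeq2 (0.0467) and with edgeR without a filter on low counts (0.000801). It also passed with the replicate block (0.0330, edgeR) and without CRE replicate 3 (0.000374, edgeR). In the other alternatives it was 0.0727 (edgeR) to 0.332 (limma), and 0.168 to 0.279 (edgeR) with any other library left out. *CDKN2B* stayed past both thresholds in every edgeR and DESeq2 fit, from -0.93 to -0.81 when 1 library was left out. It lost the call with limma on log2(TPM + 1) without a filter on low values (-0.92, adjusted p = 0.0771), where no member passed (0 past both thresholds and 0 at any fold), 12 genes were lower, 20 higher and 1 list member was called. With a mean TPM of at least 1, limma called 50 lower and 34 higher genes (pseudocount 1, 1 list member) or 52 and 32 (pseudocount 0.1), against 263, 77 and 3 with edgeR. Without a filter on low counts edgeR tested 28533 genes and called 411 lower and 187 higher. In that fit 2 members were past both thresholds, *CDKN2D* being added (0.63, adjusted p = 0.00301, edgeR). At any fold 3 passed, *CDKN2A* and *CDKN2D* being added. The same fit took the adjusted p of *CDKN2B* from 7.78e-05 to 5.16e-26 (edgeR). DESeq2 gave 2 members at any fold, the second being *CDKN2A*. An adjusted p of 0.01 gave 149 lower genes. The cause of these shifts was not tested.

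With 1 library left out, lower genes numbered 143 to 270 (143 without CRE + VAF347 replicate 3), higher genes 58 to 110, and members at any fold 1 to 2. The sign of 3 members near 0 was not stable: *CDKN1A* was -0.0186 in all 3 limma fits and -0.016 to 0.052 with 1 library left out, *CDKN1B* -0.041 to 0.018 and *CDKN2C* -0.0080 to 0.12. *CDKN2A* ranged from -0.40 to -0.22 and *CDKN2D* from 0.43 to 0.79. *CDKN1C*, removed by the filter, has a value without it only.

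Same-numbered libraries correlated at 0.116, 0.096 and 0.031 in their deviations from the group means, so the numbers were not taken as pairs, although each library correlated best with its own number. With the replicate block 2 members passed at any fold, *CDKN2B* (-0.88, adjusted p = 0.000378, edgeR) and *CDKN2A* (-0.30, adjusted p = 0.0330). Libraries of 8873140 to 10750265 counts limit what can be seen of *CDKN1C* and *CDKN2D*.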
